A study of Homo sapiens with 6 samples.

Results

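The genes described here are the 197 zinc finger genes with a numbered ZNF symbol that lie outside chromosome 19 and were expressed in MHCC97H cells, a human hepatocellular carcinoma line of high metastatic capacity. They were chosen by symbol, by a deposited location on any chromosome other than 19, and by a mean raw count of at least 20 over the 6 libraries. Such a symbol was carried by 469 of the 15598 deposited genes. Outside chromosome 19 there were 235, of which 38 fell below the mean count, and the 197 that reached it lay on 20 chromosomes. On chromosome 19 itself 193 zinc finger genes reached the same count. The mean count used for the choice pools both groups, and 1 of the 197 genes was below 20 in 1 group alone. Just inside the limit lay ZNF25 and ZNF19, with mean counts of 20.3 and 23.2, and just outside it lay ZNF92 and ZNF138, with 19.8 and 19.2.

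Total RNA was sequenced from cells with a hairpin RNA that targets HNRNPC (3 libraries, shHNRNPC) and from cells with a control hairpin (3 libraries, shcontrol). Both groups are the same line, and the labels tell apart 1 knockdown construct, so effects of the hairpin itself and of losing HNRNPC cannot be told apart. The comparison asks which transcripts change when hnRNP C is depleted. The libraries are named NC_3, NC_3_2 and NC_3_3 for shcontrol and SI_3, SI_3_2 and SI_3_3 for shHNRNPC, and the design text calls them independent replicates without naming cultures. The p-values therefore measure the spread between these libraries, which may be technical.

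Zinc finger genes of this kind mostly encode DNA-binding proteins. Each C2H2 finger is a short fold in which 2 cysteines and 2 histidines hold a zinc ion, and fingers arranged in tandem read successive bases of a DNA site. Many carry a KRAB box, which recruits the corepressor TRIM28 and through it the histone methyltransferase SETDB1, and a large share of the KRAB proteins bind transposable elements. Genes of the family arose by tandem duplication, with their best known arrays on chromosome 19 and smaller ones elsewhere. Others with a ZNF symbol have no DNA-binding role and act on RNA, ribosomes or the cytoskeleton. The protein depleted here, hnRNP C, attaches to runs of uridine in newly made RNA and restrains the use of splice sites in antisense Alu elements.

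Library totals ranged from 15563077 to 18328475 counts, and the 197 genes took 0.441% to 0.453% of them. HNRNPC, at 847, 855 and 856 CPM (counts per 1000000 reads of the TMM-scaled library) in shcontrol and 61.5, 66.4 and 58.95 CPM in shHNRNPC, was lower in every library labelled as the knockdown, with a log2 fold change of -3.77 (SE 0.030, edgeR adjusted p = 5.04e-55). Of 10 hepatocyte and liver cancer markers 1 was tested, CPS1, and of 4 epithelial markers 3 were tested and summed to 1375 to 1394 CPM in shcontrol and 1570 to 1590 CPM in shHNRNPC. Of 4 leukocyte markers CD68 alone was above 1 CPM (43.2 CPM in shcontrol and 64.9 in shHNRNPC). Of 4 fibroblast markers 3 were tested, with sums of 434 to 441 CPM in shcontrol and 355 to 359 CPM in shHNRNPC. The 4 endothelial markers together stayed at or below 2.10 CPM. In bulk RNA a change in the number of cells of a type and in the RNA of each cell cannot be told apart. The part of these markers in the results below was not tested.

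The zinc finger genes moved in both directions in nearly equal numbers and by small amounts. Of the 197 genes 50 were higher and 47 lower in shHNRNPC at an edgeR adjusted p under 0.05, and 100 were not called. The share called was 49.2%, against 61.1% of all 11831 genes tested. Over all genes 29.8% were higher and 31.3% lower. The median log2 fold change was -0.03 for the zinc finger genes and -0.004 for all genes tested. Scaled by library size alone, 41 were higher and 57 lower. At least 2-fold changes numbered 3, all of them rises, and 77 of the 97 called genes changed by less than 1.5-fold. The 2 groups of 3 libraries did not overlap for 114 of the 197 genes, where 64.0% of all genes tested had no overlap. Tested against a change of 1.2-fold in place of none, 16 genes were higher and 24 lower, and 25.0% of all genes passed that test in either direction. By the authors' deposited table, higher genes numbered 37 of the 197 and lower genes 38, all 75 with the direction found here, while 39.7% of the 15598 genes in that table passed the authors' adjusted p.

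**Figure D1:**
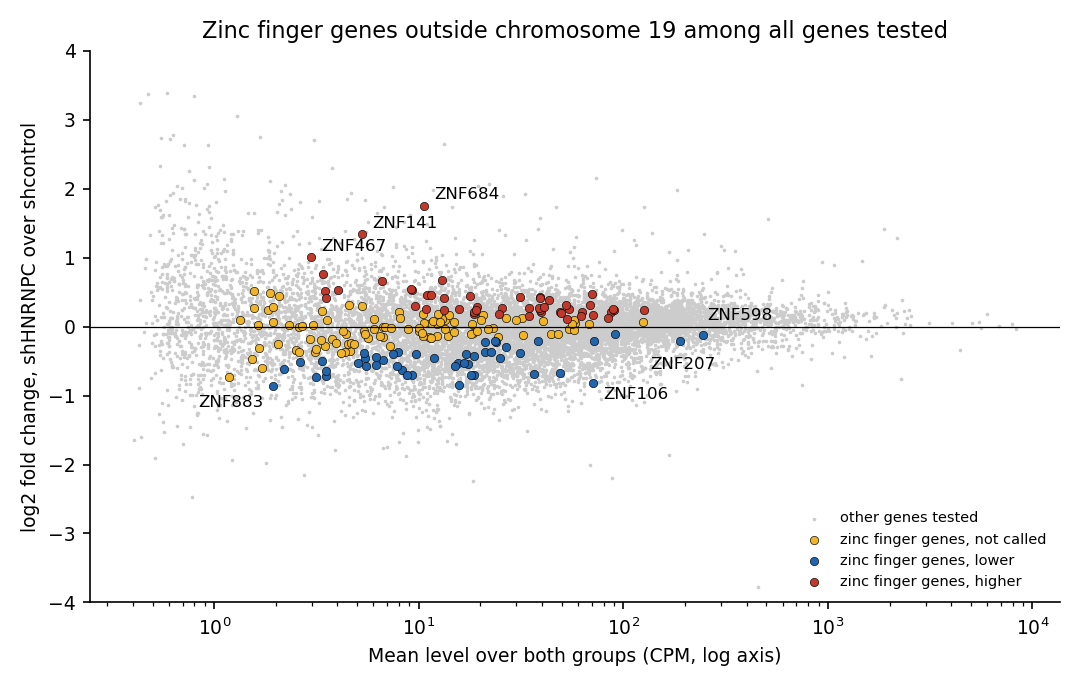
Each point is 1 tested gene, with its mean level over the 6 libraries (CPM, log axis) against its log2 fold change; zinc finger genes outside chromosome 19 are coloured by edgeR call and other genes are grey. The 197 genes lie between -0.87 (ZNF883) and 1.76 (ZNF684), and those with the highest levels, ZNF598 and ZNF207, lie close to 0.

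The largest rise was that of ZNF684, a KRAB gene of chromosome 1 (40531561 to 40548169, plus strand). It had 3.53, 6.27 and 4.73 CPM in shcontrol and 16.4, 16.4 and 16.1 CPM in shHNRNPC. The shHNRNPC libraries were nearly equal and each was more than double the highest control. The log2 fold change was 1.76 (SE 0.124, edgeR adjusted p = 9.15e-17). ZNF141, a KRAB gene near the end of the short arm of chromosome 4 (337835 to 375258, plus strand), had 2.82, 2.59 and 3.50 CPM in shcontrol and 6.75, 8.33 and 7.58 CPM in shHNRNPC. All knockdown libraries lay above all controls, with a log2 fold change of 1.34 (SE 0.157, edgeR adjusted p = 4.69e-10). ZNF467, whose mouse counterpart favours fat over bone cell differentiation, had 2.23, 2.09 and 1.61 CPM in shcontrol and 4.26, 3.59 and 4.02 CPM in shHNRNPC. Its groups did not overlap either (log2 fold change 1.003, SE 0.204, edgeR adjusted p = 3.64e-05). These 3 genes were the ones called at least 2-fold higher.

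Among the other large rises were genes without a classical finger array. ZNF862, a KRAB protein related to hAT transposases in which no C2H2 finger was matched, had 9.76, 10.6 and 9.42 CPM in shcontrol and 16.2, 16.7 and 14.7 CPM in shHNRNPC, with no overlap (log2 fold change 0.68, SE 0.097, edgeR adjusted p = 4.79e-08). Its exons overlap those of AC004877.1 on the other strand. ZNF185, a LIM-domain protein of the actin cytoskeleton without a C2H2 match, had 5.53, 4.81 and 5.004 CPM in shcontrol and 9.31, 8.62 and 6.45 CPM in shHNRNPC. The lowest knockdown library was above the highest control (log2 fold change 0.66, SE 0.1401, edgeR adjusted p = 6.70e-05). The KRAB gene ZNF695 had 2.70, 2.59 and 2.26 CPM in shcontrol and 4.50, 3.82 and 4.53 CPM in shHNRNPC. It was higher in all 3 knockdown libraries, with a log2 fold change of 0.77. ZNF2, ZNF18, ZNF519 and ZNF362 rose 1.46-fold, 1.45-fold, 1.43-fold and 1.38-fold, each with no overlap between groups.

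ZNF775 rose 1.45-fold as counted, from 3.94, 3.86 and 2.15 CPM to 4.56, 4.79 and 4.87 CPM. The low shcontrol library NC_3_3 carried that call: without it the log2 fold change was 0.28 (edgeR adjusted p = 0.18), and with an offset for the GC content and length of each transcript it was 0.30 (edgeR adjusted p = 0.16).

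No zinc finger gene was called at least 2-fold lower. The lowest fold change was that of ZNF883, a gene of 13 fingers on chromosome 9 (112997120 to 113050043, minus strand). It had 2.06, 2.97 and 2.53 CPM in shcontrol and 1.03, 1.37 and 1.70 CPM in shHNRNPC. The groups did not overlap, but each library held few reads of this gene (mean count 33.3 over 6 libraries), and the log2 fold change was -0.87 (SE 0.252, edgeR adjusted p = 0.00275). ZNF770 had 20.5, 19.7 and 20.4 CPM in shcontrol and 10.2, 12.5 and 11.1 CPM in shHNRNPC, a clear separation with a log2 fold change of -0.84 (SE 0.089, edgeR adjusted p = 3.32e-11). After the GC and length offset it was -0.43. Its exons overlap AC114546.3 on the other strand.

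The most abundant of the strongly lowered genes was ZNF106, an RNA-binding protein of muscle and motor neurons, on chromosome 15 (42412823 to 42457532, minus strand). It had 89.7, 90.4 and 91.7 CPM in shcontrol and 52.8, 52.0 and 50.2 CPM in shHNRNPC. Within each group the libraries differed by a few CPM at most, and the log2 fold change was -0.81 (SE 0.044, edgeR adjusted p = 7.19e-21). ZNF664 had 60.4, 60.5 and 58.8 CPM in shcontrol and 38.2, 37.2 and 37.8 CPM in shHNRNPC. It was as tightly grouped and fell by 0.67 on the log2 scale (SE 0.051, edgeR adjusted p = 1.80e-15), with CCDC92 on the other strand. ZNF24, a SCAN-domain factor known to repress VEGF, had 46.8, 43.9 and 44.3 CPM in shcontrol and 26.9, 28.3 and 28.9 CPM in shHNRNPC. It was lower in every knockdown library (log2 fold change -0.68, edgeR adjusted p = 8.98e-14), and after the GC and length offset the value was -0.25.

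ZNF281, which binds GC-rich promoter sequences and is linked to stem cell identity and epithelial-mesenchymal transition, had 22.1, 20.6 and 23.7 CPM in shcontrol and 14.2, 12.7 and 13.9 CPM in shHNRNPC. The groups were apart, with a log2 fold change of -0.71 (SE 0.084, edgeR adjusted p = 7.21e-10). ZNF131, a BTB-domain zinc finger factor, fell 1.62-fold, from 21.3, 23.04 and 24.8 CPM to 14.6, 15.01 and 13.01 CPM. ZNF786, a KRAB gene, fell 1.63-fold, from 12.4, 11.6 and 10.5 CPM to 5.54, 7.59 and 7.98 CPM. None of these groups overlapped. ZNF800 fell 1.62-fold as counted, and its log2 fold change moved from -0.70 to -0.35 with the GC and length offset. ZNF449 and ZNF674, both on chromosome X, had log2 fold changes of -0.73 and -0.64. The offset ended both calls, at -0.44 (edgeR adjusted p = 0.053) and -0.37 (edgeR adjusted p = 0.093), and without the library SI_3_3 that of ZNF674 was -0.45 (edgeR adjusted p = 0.054).

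**Figure D2:**
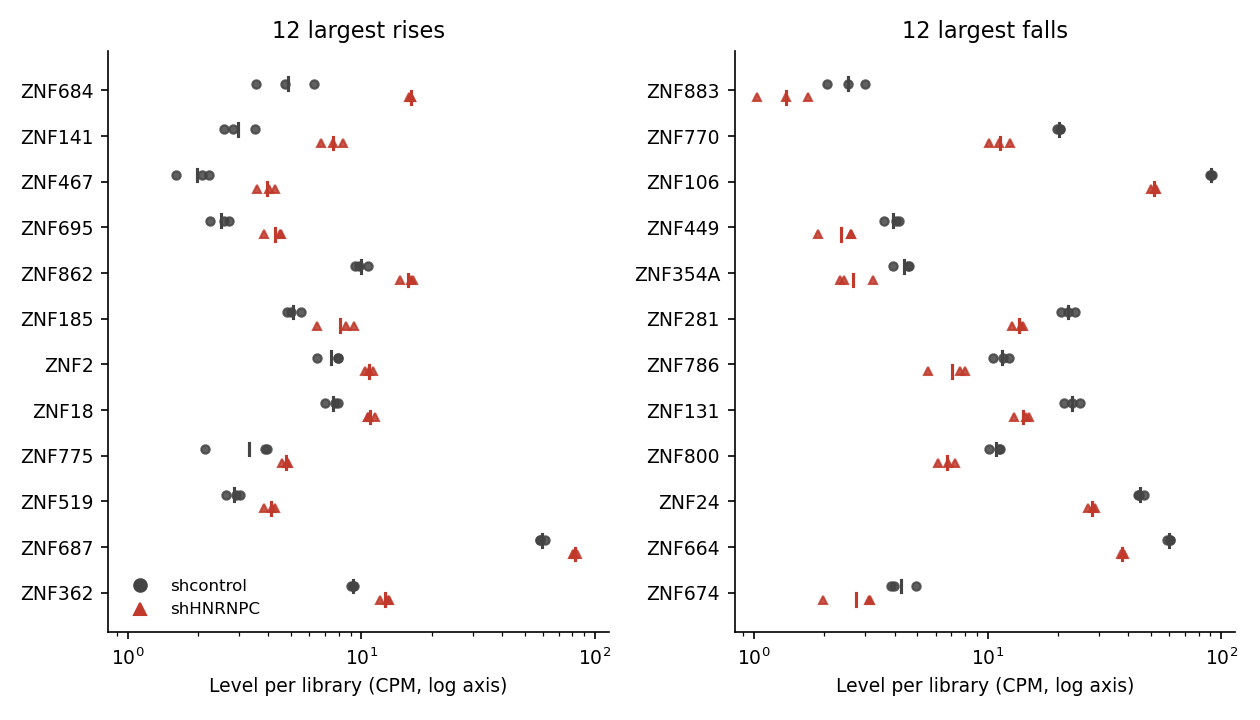
Level in each library (CPM, log axis) of the 12 genes with the highest and the 12 with the lowest fold change among called genes without overlap; circles are shcontrol, triangles shHNRNPC and bars the mean of 3 libraries. ZNF684 is at 16.1 to 16.4 CPM in the knockdown and 3.53 to 6.27 CPM in shcontrol, and most other genes shift by less than 2-fold.

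Some of the 197 genes, called and uncalled, share a sequence near their start. The letters ACTACANNTCCC, the core of the site bound by ZNF143, itself a zinc finger activator, were searched on both strands of RefSeq promoters (GRCh38.p14, 250 bases before to 50 after each annotated start), which the table gave for 164 of the 197 genes. They were found for 20 of those genes, or 12.2%, against 4.61% of the tested genes with a promoter and 2.15% of all 27305 genes of the table. On chromosome 19 the share was 19.7% of 173 zinc finger genes. The pattern was picked after the shares of several patterns had been seen. The match lay within 100 bases before the start in 12 of the 20. The windows of the gene that rose most and of 3 that were lower among the 20 are shown with that of ZNF354B, the close relative of ZNF354A, in the direction of the gene, with the matched letters in capitals. They lie at chr7:149838312-149838371 (plus strand, ZNF862), chr9:113012209-113012268 (minus strand, ZNF883), chr5:178730749-178730808 (minus strand, ZNF354A), chr5:178859873-178859932 (plus strand, ZNF354B) and chr6:57089971-57090030 (plus strand, ZNF451).
ZNF862: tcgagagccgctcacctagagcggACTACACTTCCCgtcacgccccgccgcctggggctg
ZNF883: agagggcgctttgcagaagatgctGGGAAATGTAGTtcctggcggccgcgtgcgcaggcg
ZNF354A: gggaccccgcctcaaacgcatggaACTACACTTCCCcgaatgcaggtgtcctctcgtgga
ZNF354B: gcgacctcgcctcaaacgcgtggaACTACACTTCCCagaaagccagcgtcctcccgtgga
ZNF451: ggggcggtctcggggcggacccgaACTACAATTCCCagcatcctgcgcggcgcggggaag

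The genes with this match did not move in 1 direction. Of the 20, 3 were higher, 8 were lower and 9 were not called, with a median log2 fold change of -0.33, against -0.03 for the genes without a match. After the GC and length offset 1 was higher and 2 lower, with a median of -0.06. The median transcript GC content of the matched genes was 42.4%, and that of the others 46.5%. Among all tested genes with a promoter, 434 had a match. Of those 434 genes 108 were higher, 147 lower and 179 not called, with a median log2 fold change of -0.06 as counted. ZNF451, with a match 193 to 182 bases before its start, had 17.8, 20.6 and 15.8 CPM in shcontrol and 12.9, 11.5 and 11.9 CPM in shHNRNPC. That fall of 0.57 on the log2 scale (edgeR adjusted p = 1.26e-06) was -0.12 after the offset (edgeR adjusted p = 0.28), and ZNF451-AS1 overlaps it on the other strand. ZNF143 itself had 12.8, 11.7 and 11.9 CPM in shcontrol and 10.6, 10.6 and 11.1 CPM in shHNRNPC, without overlap but not called (log2 fold change -0.17, edgeR adjusted p = 0.13). The CCGGAAGT letters of ETS factors were found in 16.5% of the 164 promoters and in 10.2% of those of all tested genes. The interferon-response letters GAAANNGAAA were found in 3.66% and 3.86%.

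Genes with roles at the ribosome had the highest levels per length. ZNF622, a factor of late 60S ribosomal subunit maturation, stood highest at 74.3 CPM per kilobase of exon, followed by ZNF598, the ubiquitin ligase that marks collided ribosomes, at 52.3. The median over the 197 genes was 2.22 CPM per kilobase, over the chromosome 19 genes 1.03 and over all genes tested 5.23. ZNF622 had 116, 113 and 117 CPM in shcontrol and 134, 140 and 137 CPM in shHNRNPC. It was higher in every knockdown library, with a log2 fold change of 0.25 (edgeR adjusted p = 2.72e-08) that was 0.07 and no longer called after the GC and length offset (edgeR adjusted p = 0.082). ZNF598 had 264, 249 and 254 CPM in shcontrol and 231, 232 and 244 CPM in shHNRNPC, a small fall without overlap (log2 fold change -0.12, edgeR adjusted p = 3.84e-04).

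ZNF207, the spindle and kinetochore protein BuGZ that stabilises BUB3, had 199.8, 201 and 205 CPM in shcontrol and 176, 174 and 173 CPM in shHNRNPC. Its direction turned in 1 of the alternative fits, the one with the GC and length offset. The log2 fold change was -0.22 as counted (edgeR adjusted p = 1.21e-08) and 0.28 after the GC and length offset (edgeR adjusted p = 1.3e-13). ZNF496, a SCAN protein that binds the histone methyltransferase NSD1, was the most abundant gene not called, at 123, 123 and 119 CPM in shcontrol and 125, 125 and 133 CPM in shHNRNPC (log2 fold change 0.07, edgeR adjusted p = 0.086). The groups did not overlap, and it passed with upper quartile scaling (0.08, edgeR adjusted p = 0.036). Of the other abundant genes not called, ZNF316, ZNF219 and ZNF646, the values were 0.03, 0.05 and 0.10. ZNF646 passed without SI_3 (0.13, edgeR adjusted p = 0.039). That of ZNF219, a cofactor of SOX9, was -0.15 after the offset (edgeR adjusted p = 0.004).

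Zinc finger proteins that act on RNA and ribosomes were grouped by hand after their values were seen, as were the small groups in the next paragraph, so the groupings carry no test. Of 8 such genes 2 were higher, 4 lower and 2 not called, and the median log2 fold change was -0.07. ZNF106, ZNF598 and ZNF622 are described above. ZNF638, a nuclear matrix protein that acts in splicing and in silencing of unintegrated retroviral DNA, had 19.6, 22.0 and 20.5 CPM in shcontrol and 13.6, 16.1 and 12.7 CPM in shHNRNPC. It was lower in every knockdown library, at -0.55 as counted (edgeR adjusted p = 6.77e-07) and -0.17 after the GC and length offset (edgeR adjusted p = 0.081). ZNF326, a subunit of the DBIRD complex that couples RNA polymerase II elongation to splicing, had 36.4, 35.6 and 34.4 CPM in shcontrol and 27.9, 27.7 and 26.3 CPM in shHNRNPC. Its groups were well apart (log2 fold change -0.38, edgeR adjusted p = 1.14e-06), but the value with the offset was 0.10 and not called. ZNF346, which binds double-stranded RNA, rose from 53.6, 46.6 and 47.3 CPM to 56.7, 60.0 and 60.0 CPM (log2 fold change 0.26, edgeR adjusted p = 2.88e-05). ZNF385A and the splicing factor ZNF830 had values of 0.17 and -0.03 and were not called, though ZNF385A passed without NC_3_3 (0.26, edgeR adjusted p = 0.037).

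ZNF687, ZNF592 and ZNF532 form the Z3 complex, which associates with the chromatin reader ZMYND8. ZNF687, mutated in a form of Paget disease of bone, had 58.3, 61.2 and 58.4 CPM in shcontrol and 80.4, 81.7 and 83.5 CPM in shHNRNPC. The separation was wide relative to the spread (log2 fold change 0.47, SE 0.044, edgeR adjusted p = 7.90e-13), though PI4KB overlaps it on the other strand. ZNF592 was at 0.15 (edgeR adjusted p = 0.00491), a call that was lost without SI_3_2 (0.12, edgeR adjusted p = 0.053), and ZNF532 was at -0.10 and not called. ZNF148, the close relative of ZNF281, had 19.3, 18.6 and 19.9 CPM in shcontrol and 13.4, 14.8 and 15.62 CPM in shHNRNPC. It fell by 0.40 on the log2 scale as counted (edgeR adjusted p = 7.92e-05), while its value after the offset was 0.09 and not called. ZNF281 kept its call there, at -0.48. ZNF217, an oncogene amplified in several carcinomas, was at -0.21 as counted (edgeR adjusted p = 7.98e-05) and at -0.02 after the offset (edgeR adjusted p = 0.67). The NET-family genes ZNF503 and ZNF703 were at 0.10 and -0.06 and were not called, and ZNF703 passed with the offset (-0.20, edgeR adjusted p = 0.039).

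Pairs of closely related genes are uncertain, since how reads matching both copies were counted is not given in the sources used here. How alike the copies of each pair are was not measured. Of the 8 genes in 4 such pairs 0 were higher, 3 lower and 5 not called. ZNF354A had 4.59, 3.92 and 4.63 CPM in shcontrol and 2.43, 2.34 and 3.22 CPM in shHNRNPC, with no overlap (log2 fold change -0.72, SE 0.184, edgeR adjusted p = 8.13e-04). Its neighbour ZNF354B had 3.94, 4.75 and 5.38 CPM in shcontrol and 3.65, 3.99 and 3.22 CPM in shHNRNPC. There the groups overlapped and the gene was not called (-0.38, edgeR adjusted p = 0.051). It passed without NC_3 (-0.49, edgeR adjusted p = 0.017) and without SI_3_2 (-0.45, edgeR adjusted p = 0.044). The difference between the 2 copies was not tested. ZNF33A and ZNF33B were at 0.06 and -0.20, and ZNF286B at 0.07, with none of the 3 called. ZNF286A was called at -0.51 (edgeR adjusted p = 0.040), a call lost without NC_3_2, NC_3_3, SI_3 or SI_3_3 in turn, at -0.55 to -0.31, after the offset (-0.32, edgeR adjusted p = 0.21) and with DESeq2 (adjusted p = 0.11). With the offset ZNF33A was called, at 0.44 (edgeR adjusted p = 3.3e-04). For ZNF75A the value was -0.17, also not called. ZNF75D was called at -0.45 (edgeR adjusted p = 0.0058), a call lost without NC_3_2 (-0.33, edgeR adjusted p = 0.064) and without SI_3_2 (-0.35, edgeR adjusted p = 0.051).

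The number of fingers was counted as matches of the C2H2 pattern in the longest protein translated from the coding transcripts of each gene in GENCODE 29. That transcript need not be the longest one, which was used for GC content. The 7 genes with no match had 4 higher and 0 lower, with a median log2 fold change of 0.21. They are a mixed set: besides ZNF862 and ZNF185 they include ZNF330, a nucleolar protein at 0.21 (edgeR adjusted p = 4.84e-04). The NET-family genes ZNF503 and ZNF703 and the gene ZNF720, with a translated protein of 178 residues, are also among them. The pattern fixes the spacer at 12 residues, so a gene without a match may still encode a finger. Of 36 genes with 1 to 4 fingers 8 were higher and 15 lower (median -0.06). Of 70 genes with 5 to 9 fingers 24 were higher and 16 lower (median 0.03), and of 58 with 10 to 14 fingers 13 were higher and 11 lower (median 0.02). Of 26 genes with 15 or more fingers 1 was higher, 5 were lower and 20 were not called (median -0.13). From the class with no match to that with 15 or more, the share called was 57.1%, 63.9%, 57.1%, 41.4% and 23.1%. Of all genes tested 61.1% were called, 29.8% higher and 31.3% lower. The differences between classes were not tested.

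These classes differ in other properties as well. The median mean count fell from 407 in the genes with 1 to 4 fingers to 134 in those with 15 or more, and the median transcript GC content from 51.0% to 42.3%. After the GC and length offset the genes with 15 or more fingers had 5 higher and 4 lower, with a median of 0.02, and those with 1 to 4 fingers 10 higher and 9 lower, with a median of -0.001. The 7 genes without a finger match then had 4 higher and 2 lower, with a median of 0.33. Across the 197 genes, which are not independent replicates, the Spearman correlation between finger number and log2 fold change was -0.08.

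**Figure D3:**
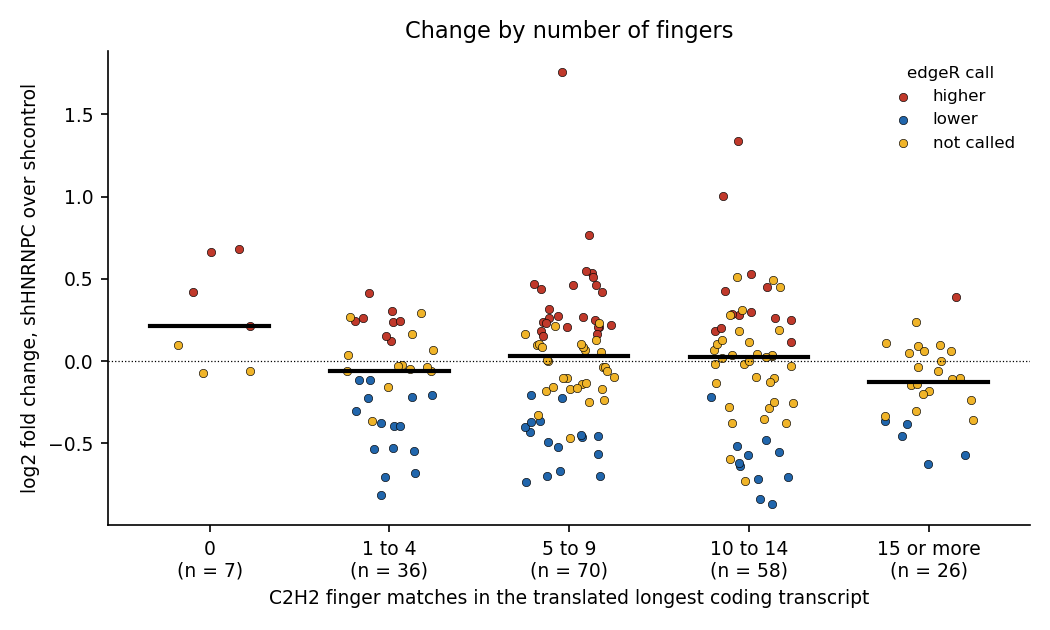
Log2 fold change of each of the 197 genes by its number of C2H2 finger matches, coloured by edgeR call, with the class median as a black line and random horizontal spread within a class. Medians are 0.21 with 0 fingers, -0.06 with 1 to 4 and -0.13 with 15 or more, and every class spans values on both sides of 0.

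A KRAB box was matched in 78 of the 197 genes. Of these 17 were higher, 15 lower and 46 not called, with a median log2 fold change of -0.002. Of the 119 genes without a match 33 were higher, 32 lower and 54 not called (median -0.03). A gene without a match may still carry the box, so these are sets by pattern and not by domain. With the GC and length offset 21 genes with a match were higher and 9 lower (median 0.07), and of the others 30 were higher and 24 lower (median 0.02). As counted, the share called was 41.0% with and 54.6% without a match, against 61.1% of all genes tested. The median mean count was 108 with and 299 without a match. The pattern for the SCAN domain, a dimerisation domain of other zinc finger factors, was matched in 15 genes, of which 6 were higher and 4 lower. It misses some, ZNF24 among them. Of 160 chromosome 19 genes with a KRAB match 28 were higher and 26 lower, a share called of 33.75%.

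The share called followed the number of reads. The genes were split into 3 sets of mean count. In the lowest set 7 of 66 genes were higher and 13 lower (30.3% called), where 37.2% of all tested genes in that count range were called. In the middle set 14 of 65 were higher and 18 lower (49.2%, against 60.9% of all genes in the range), and in the highest set 29 of 66 were higher and 16 lower (68.2%, against 69.4%). The zinc finger genes on chromosome 19, with a median mean count of 105 against 198 here, had 38 higher, 30 lower and 125 not called, a share of 35.2% and a median log2 fold change of 0.02. The difference between both sets was not tested.

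The direction went with the GC content of the transcript. Of 40 zinc finger genes with a longest coding transcript under 40% GC, 4 were higher and 13 lower, with a median log2 fold change of -0.21. Of 81 genes between 40% and 50%, 9 were higher and 29 lower (median -0.17). Of 76 genes at 50% or more, 37 were higher and 5 lower (median 0.16). The same order held for all tested genes, whose medians were -0.39, -0.08 and 0.10. From the lowest to the highest GC band, 32.5%, 35.8% and 6.6% of the zinc finger genes were lower, against 63.5%, 37.4% and 15.4% of all genes. In the same order 10%, 11.1% and 48.7% were higher, against 7.6%, 23.3% and 42.8% of all genes. Across genes the Spearman correlation between GC content and log2 fold change was 0.41 for the 197 genes and 0.43 for 11813 tested genes. Points share libraries, and transcript length went the other way (-0.27 and -0.32).

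Of the 12 largest rises 7 were of genes at 50% GC or more, 1 of a gene between 40% and 50%, and 4 of genes under 40%, among them the largest 2. The transcripts of these 4, ZNF684, ZNF141, ZNF695 and ZNF519, have GC contents of 38.3%, 37.5%, 38.8% and 35.7%, and after the GC and length offset their log2 fold changes were 1.99, 1.63, 1.05 and 0.83. ZNF786, at 56.7% GC, was at -0.84 after the offset. With the offset fitted over all genes, 51 of the 197 genes were higher and 33 lower, and the median turned to 0.02. Of the 97 genes called as counted 60 kept their call and direction, 36 lost their call and 1, ZNF207, was called in the opposite direction, while 23 others gained a call. The sign of the log2 fold change turned for 42 of the 197 genes, 4 of them called as counted. The offset takes out the trend of each library with GC content and length over all genes, any part tied to the knockdown included. The weaker correlation with GC content that remained, -0.10, was therefore expected by construction and is no result about these genes.

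**Figure D4:**
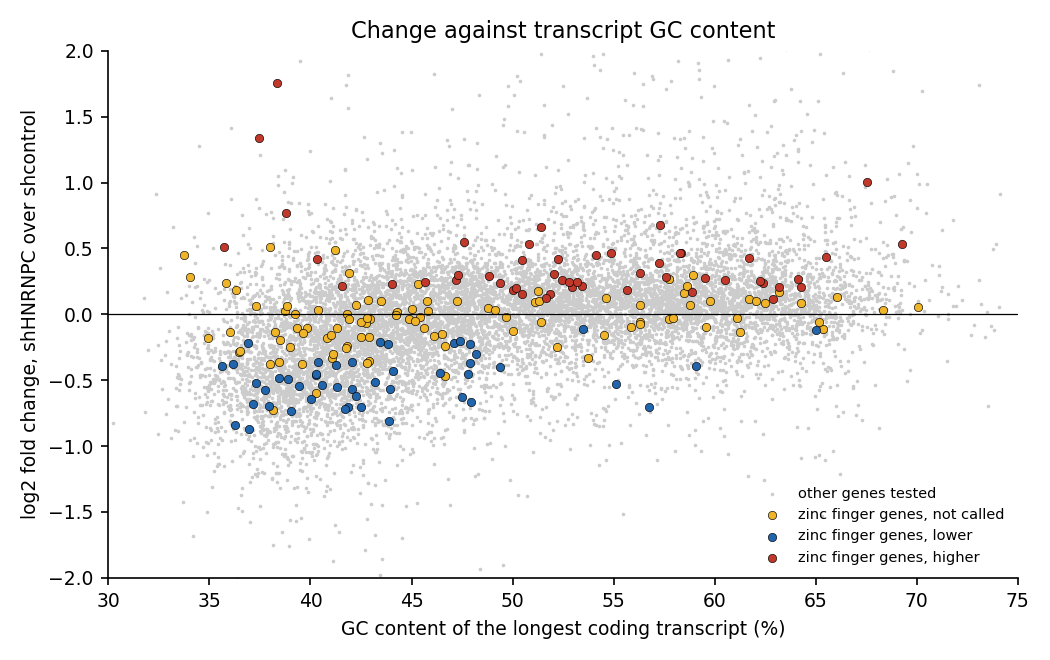
GC content of the longest coding transcript (%) against log2 fold change, with the 197 zinc finger genes coloured by edgeR call and other tested genes in grey; 35 other genes lie outside the axes. Called falls gather at low GC content and called rises at high GC content, while ZNF684 and ZNF141 lie at the top left.

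Neighbouring genes did not always share a direction. Chains of at least 3 of the genes with starts within 500 kb of each other formed 14 local clusters with 71 genes, of which 18 were higher, 13 lower and 40 not called. Among the 126 genes outside clusters 32 were higher and 34 lower. In 5 clusters there were calls in both directions, in 8 in 1 direction, and in 1 there was none. Most of the 8 held only 1 called gene, which cannot show a shared direction. The exceptions were on chromosome 9, with 2 genes lower, and on chromosome 16 (3112573 to 3408973), with 3 higher.

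The largest spread within a cluster was on chromosome 7, where 10 genes lie within 0.80 Mb (149069643 to 149867479). There 4 were higher, 3 lower and 3 not called. ZNF786 at one end had a log2 fold change of -0.70, and ZNF467 and ZNF862 at the other had 1.003 and 0.68. On chromosome 1 (246985323 to 247331743) ZNF695 was at 0.77, while its neighbour ZNF670 was at -0.49 (edgeR adjusted p = 0.021). The call of ZNF670 was lost without NC_3_3 (-0.41, edgeR adjusted p = 0.11), without SI_3 (-0.40, edgeR adjusted p = 0.099) and without SI_3_2 (-0.48, edgeR adjusted p = 0.052). On chromosome 4 (53285 to 474142) ZNF141 was the 1 gene of 4 that was called. ZNF595 there was at -0.11 and not called. It was at -0.16 without NC_3 (edgeR adjusted p = 0.020) and at 0.12 after the GC and length offset (edgeR adjusted p = 0.043).

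The cluster with the most genes was on chromosome 16 (30395419 to 31084196), with 11 genes, of which 4 were higher and 1 lower. ZNF771 stood highest at 0.46 (edgeR adjusted p = 1.02e-04) and ZNF688 lowest at -0.40 (edgeR adjusted p = 0.0063), the latter not called without NC_3_3 (-0.30, edgeR adjusted p = 0.070). A second cluster on that chromosome (3112573 to 3408973) had 3 of 6 genes higher, led by ZNF213 at 0.44 (edgeR adjusted p = 1.65e-08). Over the whole of chromosome 16, 9 of 26 genes were higher and 2 lower (34.6% and 7.7%). Their median was 0.12 and their median GC content 58.1%. Of all tested genes at 50% GC or more, 42.8% were higher and 15.4% lower. After the offset 7 of the 26 genes were higher and 5 lower. On chromosome X 1 of 9 genes was higher, ZNF185, and 4 were lower (median -0.35, median GC content 42.9%). Medians were also low on chromosomes 5 (-0.37, 7 genes) and 6 (-0.32, 8 genes). The highest median was on chromosome 22 (0.23, 2 genes).

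In the chromosome 12 cluster (132918308 to 133205023) ZNF26 was the 1 of 7 genes called, at -0.55 (edgeR adjusted p = 5.95e-04) and -0.17 after the offset (edgeR adjusted p = 0.29). In the first cluster of chromosome 7 (64312808 to 64929257) none of 4 genes was called, and ZNF273 was at 0.51, passing only after the offset (0.76, edgeR adjusted p = 0.016). On chromosome 10 ZNF25, with 1.71, 1.27 and 1.45 CPM in shcontrol and 0.426, 1.31 and 0.905 CPM in shHNRNPC, overlapped between groups and was not called (-0.73, edgeR adjusted p = 0.051). Left-out libraries moved it past the threshold, at -0.82 without NC_3_2 and -1.13 without SI_3_2, as did scaling by library size alone (-0.77).

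**Figure D5:**
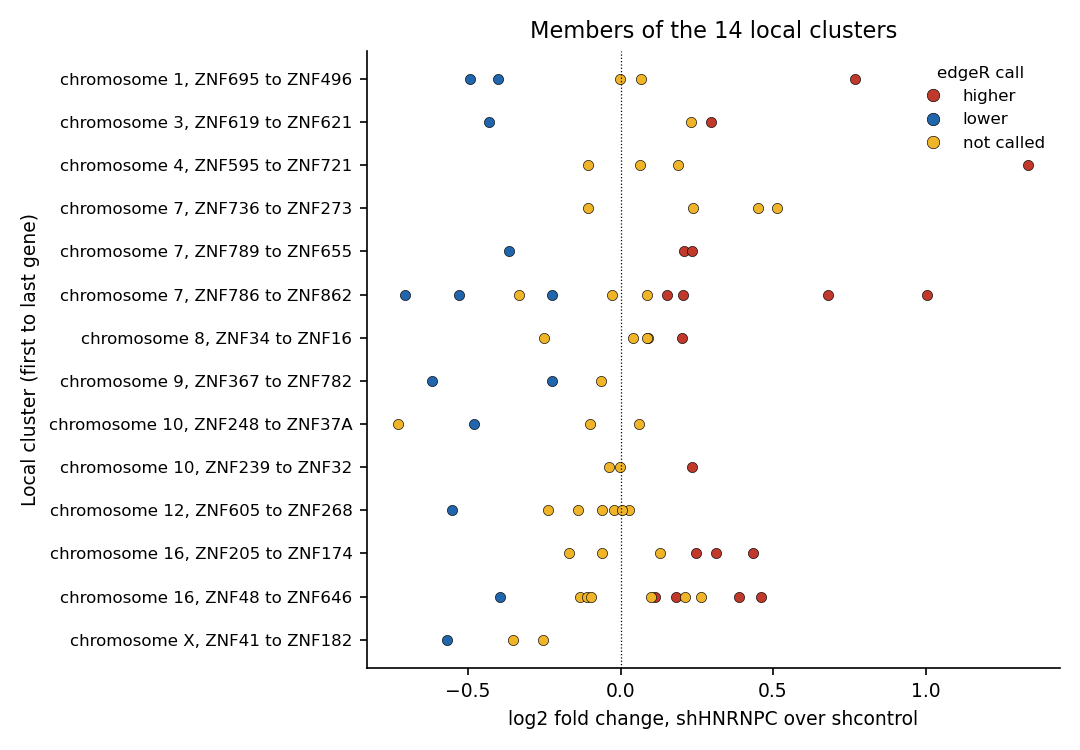
Log2 fold change (horizontal axis) of the genes in each of the 14 local clusters, named by chromosome and by first and last gene and coloured by edgeR call. The chromosome 7 cluster from ZNF786 to ZNF862 runs from -0.70 to 1.003, and the chromosome 4 cluster holds ZNF141 at 1.34 beside 3 genes near 0.

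Exons of 66 of the 197 genes overlap an exon of a gene on the other strand in GENCODE 29. Since the use of strand in counting is not given in the sources used here, reads from the 2 strands cannot be told apart for these genes. Overlap with genes on the same strand was not examined for any of the 197. Of the 66, 21 were higher and 10 lower. Of the other 131, 29 were higher and 37 lower. The share called was 47.0% with and 50.4% without such overlap, against 61.1% of all genes tested. The 2 sets also differ in median transcript GC content (49.1% with and 44.9% without overlap) and in median mean count (246 and 173.5). The part of the overlap in their directions was not tested.

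Transcripts of proteins that work with KRAB zinc fingers were also counted. Of a list of 20 corepressor genes 19 were tested, of which 5 were higher, 12 lower and 2 not called, with a median log2 fold change of -0.24 against -0.004 for all genes. The share called lower was 63.2%, against 31.3% of all genes, and the median mean count of the list was 1556, against 482. SETDB1, the histone methyltransferase of the complex, had 48.4, 45.6 and 48.96 CPM in shcontrol and 32.7, 29.2 and 29.6 CPM in shHNRNPC. Its groups were well apart (log2 fold change -0.65, SE 0.059, edgeR adjusted p = 3.44e-13). MPHOSPH8, the chromodomain subunit of the HUSH silencing complex, had 26.4, 23.2 and 26.0 CPM in shcontrol and 13.02, 15.1 and 12.5 CPM in shHNRNPC. This was the lowest value of the list (-0.90, SE 0.084, edgeR adjusted p = 8.76e-13).

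The other HUSH subunits FAM208A and PPHLN1 were at -0.36 and -0.19, and ATF7IP, which stabilises SETDB1, at -0.37, all 3 called lower and named after their values were seen. CBX5, the heterochromatin protein HP1 alpha, fell 1.42-fold, from 162, 157 and 156 CPM to 109.9, 110.2 and 115 CPM. After the GC and length offset its log2 fold change moved from -0.50 to -0.17 and kept its call. HDAC1, a histone deacetylase, rose 1.196-fold. TRIM28 itself, named after its value was seen, was called higher at 0.14 (SE 0.023). With the offset 3 genes of the list were higher and 8 lower.

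C2H2 genes under other symbols (ZSCAN, ZKSCAN, ZBTB, ZFP and KLF followed by a number, on any chromosome) had 16 of 83 tested genes higher and 26 lower, with a median of -0.10. Among 35 ZBTB genes, which pair fingers with a BTB domain, 6 were higher and 17 lower (median -0.24), and among 16 ZSCAN genes 2 were higher and 0 lower (median 0.07). KLF4, a Krüppel-like factor of epithelial differentiation and stem cell identity, had 19.99, 21.1 and 18.2 CPM in shcontrol and 45.3, 51.6 and 43.8 CPM in shHNRNPC. Every knockdown library was at more than double the highest control (log2 fold change 1.249, SE 0.069, edgeR adjusted p = 1.88e-20). KLF6, of the same family, fell 1.52-fold. ZBTB21 and ZKSCAN1 fell 1.80-fold and 1.47-fold as counted, and after the offset their log2 fold changes were -0.43 and -0.35. With the offset 16 of the 83 genes were higher and 17 lower.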

How the data were processed

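RNA sequencing libraries of MHCC97H cells were made with the NEBNext Ultra kit from Trizol-extracted RNA, per the labels' protocols. STAR, HTSeq 0.6.0 and DESeq2 were used upstream, per the submitters' processing notes. The build, annotation and strand setting were not given in the sources used here. As deposited by the authors, the count columns hold raw, whole-number reads for each gene, which were used without change. The authors also deposited log2 fold changes (SI over NC) with p-values and adjusted p-values, used only where the authors' table is named. Columns were assigned to groups by the names NC and SI. Another 24 columns of per-library values were not used.

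Counts were filtered with filterByExpr, scaled by TMM and tested with edgeR 4.0.16 (glmQLFit, glmQLFTest) in R 4.3.3, with Benjamini-Hochberg adjustment over 11831 genes and a threshold of 0.05. Standard errors are the fold change divided by the root of the F statistic. DESeq2 1.42.0, other scalings and filters, each library left out, a test against a 1.2-fold change, and an offset for transcript GC content and length (smooth terms in mgcv 1.9.3) were alternatives. The code was tested on simulated counts.

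In GENCODE 29 (GRCh38) a gene with the same name overlaps each of the 197 locations. Fingers, KRAB and SCAN patterns were matched in proteins translated from GENCODE 29 coding sequences, in place of the RefSeq proteins first intended. Lengths for levels per kilobase are merged exons. The members, lists and alternatives were chosen with earlier results of these data known.

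Genes were named by rule: HNRNPC, then the 12 called genes without overlap with the highest fold changes and the 12 with the lowest, the 4 most abundant genes, the 4 most abundant uncalled genes, those next to the count limit, the extremes of each local cluster, and the 4 smallest adjusted p of each list. Genes in the groups by role, in the closely related pairs and in the paragraphs on promoters, and other genes outside the rule, were chosen after their values were seen.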

Additional observations from a re-analysis of the deposited data

How the results depend on the processing

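Tested against a change of 1.2-fold, 16 zinc finger genes were higher and 24 lower, the corepressor list had 0 higher and 4 lower, and the other C2H2 list 8 higher and 15 lower. Of the members without exon overlap on the other strand, an alternative added after the data were seen, 29 were higher. The median log2 fold change was -0.017 with upper quartile scaling, -0.072 with library size alone, 0.023 with the GC and length offset, 0.034 at a mean count of at least 100 and -0.048 without opposite-strand overlap. The last 2 drop genes by construction; the cause of the other shifts was not tested. With the GC and length offset the corepressor list had 3 higher, the other C2H2 list had 17 lower, and 5 genes among those named and called in at least 1 of the fits changed sign: ZNF148 (0.088), ZNF207 (0.28), ZNF219 (-0.15), ZNF326 (0.10) and ZNF595 (0.12). Leaving out single libraries gave 43 to 48 higher and 42 to 47 lower genes, and medians of -0.032 to -0.019. DESeq2 gave 41 higher and 40 lower. The 97 calls kept their direction in these refits where they stayed called, with 7 to 15 lost per left-out library. Genes near the limit of 20 counts hold few reads, so small changes were not detectable in them at this depth. The deposited columns carry no replicate number of the sample titles. With the suffix shared by NC and SI column names as a replicate block, added after the data were seen, 47 genes were higher and 47 lower (median -0.031), and 3 calls were lost. Libraries with the same suffix did not deviate together (correlations of -0.043 to 0.008 over 11831 genes), so the suffix gave no sign of pairing.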
